A study of Mus musculus with 598 samples.

Results

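The apelin receptor and its peptide ligands were followed cell by cell in early mouse mesoderm. They were taken as the rows of Aplnr, Apln and Apela, 3 of the 40912 genes in the deposited count table, over all 598 single-cell libraries. Each library is 1 cell in which a GFP reporter of Mesp1, a gene active at the onset of mesoderm formation, was on at sorting. The labels give 85 knockout (KO) cells at embryonic day E6.75 and 513 wild type (WT) cells, 33.5% of them at E6.75 and 66.5% at E7.25, all labelled Mesp1+ cells of the gastrulating embryo. They name no embryo, litter, strain or sex, and they do not say which gene the knockout lacks. The question was whether receptor and ligand are read in the same cells or in different ones.

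Aplnr (ENSMUSG00000044338) encodes a G protein-coupled receptor, and Apln (ENSMUSG00000037010) and Apela (ENSMUSG00000079042) each encode a short secreted precursor from which a peptide ligand of that receptor is cut. Binding of either peptide engages inhibitory G proteins and arrestins. Apela, also called Elabela or Toddler, is made by pluripotent cells, and in zebrafish its loss impairs the movement of mesoderm and endoderm cells during gastrulation. In the mouse the receptor is known from early mesoderm and later from heart progenitors and endothelium.

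In the GRCm38 assembly (mm10) Aplnr lies on the plus strand of chromosome 2 from 85136225 to 85139923, Apln on the minus strand of chromosome X from 48025146 to 48034853, and Apela on the minus strand of chromosome 8 from 65028417 to 65037336. A non-coding transcript gene, Gm45886, overlaps Apela on the same strand and has no row in the count table, so the part of its reads that was counted as Apela is unknown. No other annotated gene lies within 2000 bases of a member. The coding sequences of both ligands are shown because they show how short the genes' products are and where the receptor-binding peptides sit. They are from GENCODE M21, 5′ to 3′, with the stop codon. Capitals mark the codons of apelin-13, the last 13 residues of the precursor, in Apln, and of the mature 32-residue peptide in Apela.
Apln: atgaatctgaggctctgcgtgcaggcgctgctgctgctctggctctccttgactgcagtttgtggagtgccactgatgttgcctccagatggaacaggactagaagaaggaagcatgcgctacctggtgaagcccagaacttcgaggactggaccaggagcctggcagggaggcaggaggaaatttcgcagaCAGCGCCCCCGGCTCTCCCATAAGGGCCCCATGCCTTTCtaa
Apela: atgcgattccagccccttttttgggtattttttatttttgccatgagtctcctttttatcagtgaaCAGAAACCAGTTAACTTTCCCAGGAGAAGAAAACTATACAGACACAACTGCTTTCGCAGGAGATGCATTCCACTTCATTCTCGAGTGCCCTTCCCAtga
The Apln coding sequence holds 77 codons and the Apela coding sequence 54, before the stop. In both precursors the marked stretch is the end of the protein, so the last 39 coding bases of Apln and the last 96 of Apela encode the peptide named.

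The cells had 101895 to 14159574 reads on genes. The data split them into 2 library sets with no name in the labels. Set 1 held 83 WT cells at E6.75, all 85 KO cells and 50.7% of the cells at E7.25, and set 2 held 89 WT cells at E6.75 and the other cells at E7.25. Set 1 was shallower, with a median of 792889 reads against 2079710, and no set 2 cell had Y-linked reads above 3 CPM (counts scaled to the same total of reads on genes in every cell or group). No member was among the 95 genes whose detection separated the sets. Groups were therefore compared within a set. Mesp1, the gene of the reporter, stood at 406 CPM in WT set 1 cells at E6.75 and at 7.40 CPM in the KO cells. Its level in the KO was 8.14 CPM in cells with Y-linked reads and 6.001 CPM in cells without. The protocol in the labels speaks of adult bone marrow, but a list of 8 bone marrow genes summed to between 0.158 and 4.88 CPM in the 5 combinations of group and set. The 10 nascent mesoderm markers, which include Mesp1, all had reads in every combination. The list summed to 1903 CPM in WT set 1 at E6.75, 1961 CPM in set 2 and 334.5 CPM in the KO. At E7.25 it summed to 3592 CPM in set 1 and 3621 CPM in set 2.

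Because each library is 1 cell and no embryo is named, a group counts as 1 sample: differences had no replicate check, and neither tests nor p-values are given. Levels are reads summed over the cells of a group, in CPM, with exact 95% Poisson intervals. Shares of cells have exact 95% Clopper-Pearson intervals. These intervals hold counting error alone, as reads were not tagged by molecule and copies of 1 molecule are not independent. A gene counted as 2-fold higher or lower where the ratio of summed CPM, with 1 CPM added to each group, was 2 or more.

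The receptor was read in nearly every WT cell and was the member that was higher at the later stage. Over WT set 1 cells at E6.75 the level of Aplnr ran from 0 to 962 CPM with a median of 93.5, and in set 2 from 0 to 555 CPM with a median of 141.1. At E7.25 it ran from 2.72 to 1735 CPM in set 1, with a median of 346, and from 4.12 to 2393 CPM in set 2, with a median of 453. No cell at E7.25 was without an Aplnr read, whereas 8 WT cells at E6.75 and 12 of the 85 KO cells had none. Over the KO cells Aplnr ran from 0 to 378 CPM with a median of 29.4, the lowest median of the receptor in any group. The ranges of single cells overlapped between all groups.

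Apelin showed the opposite order of medians. Apln ran from 0 to 779 CPM over the KO cells with a median of 101.1, and 50.6% of KO cells (43 of 85) were above 100 CPM. In WT cells at E6.75 it ran from 0 to 642 CPM in set 1, with a median of 7.88, and from 0 to 842 CPM in set 2, with a median of 32.2. The set 1 level rested on few cells, since the 5 cells with the most Apln reads held 60.2% of them. At E7.25 the median was 0 in set 1 and 0.392 CPM in set 2, but single cells reached 434 and 1039 CPM. Apelin at E7.25 was thus high in a minority of cells: 6.36% of set 1 and 11.3% of set 2 cells were above 100 CPM.

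Apela was the rarest of the 3 in every group. Its median was 0 in each combination of group and set, and its highest cell had 151.3 CPM in WT set 1 at E6.75, 75.9 CPM in set 2, 158.4 CPM in the KO, and 227.8 and 64.7 CPM at E7.25. The 5 cells with the most Apela reads held 56.4% to 78.3% of its reads in every combination. Its group levels therefore describe a handful of cells.

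**Figure D1:**
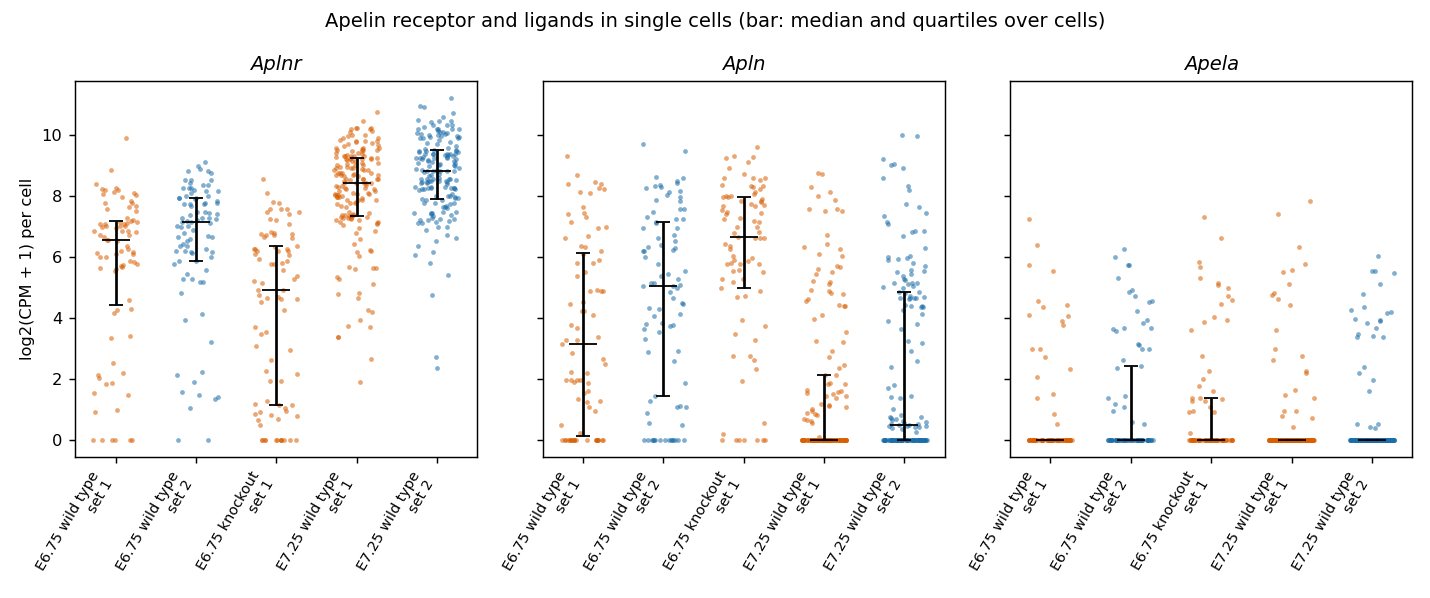
Level of each gene in every cell, as log2(CPM + 1), by group and library set (orange, set 1; blue, set 2). Bars mark the median and the quartiles over cells. Aplnr sits highest at E7.25 (medians 346 and 453 CPM), Apln sits highest in the knockout (median 101.1 CPM), and most cells have no Apela read.

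Per kilobase of exon, the scale on which different genes can be set side by side, summed receptor and apelin were close in WT cells at E6.75. Summed levels were 28.9 CPM per kilobase for Aplnr and 25.2 for Apln in set 1, a ratio of 1.15, and 46.5 and 32.3 in set 2, a ratio of 1.44. The typical cell was not so balanced. Medians, not scaled to the exon lengths of 3699 and 3149 bases, were 93.5 CPM of Aplnr and 7.88 CPM of Apln in set 1. In set 2 they were 141.1 and 32.2 CPM. In the KO the order was reversed, with 11.7 CPM per kilobase of Aplnr and 49.96 of Apln, 4.28 times as much ligand as receptor. At E7.25 the receptor exceeded apelin 17.3 times in set 1 and 9.97 times in set 2. Apela stood below Apln everywhere on this scale, from 0.129 of its level in the KO to 0.760 in E7.25 set 1.

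In the knockout comparison, restricted to set 1, the receptor was lower and apelin higher. Summed Aplnr was 43.2 CPM (42.004 to 44.4) in the 85 KO cells and 106.8 CPM (104.7 to 108.9) in the 83 WT cells, a log2 ratio of -1.29. Apln was 157.3 CPM (155.02 to 159.6) in the KO and 79.2 CPM (77.5 to 81.1) in WT, a log2 ratio of 0.98, just short of 2-fold. Apela was 6.45 CPM (5.99 to 6.93) in the KO and 4.58 CPM (4.16 to 5.03) in WT, a log2 ratio of 0.42. Thus 1 of the 3 genes was 2-fold lower and none was 2-fold higher, but Apln passed 2-fold with TMM scaling (1.014), median-of-ratios scaling (1.03) and equal weight for every cell (1.30). For comparison, 7.64% of the 13934 genes of at least 1 CPM in the higher group were 2-fold lower, 4.8% were 2-fold higher and 12.4% passed either way. The median log2 ratio of all those genes was -0.03.

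Single cells varied more than the groups differed. The mean of log2(CPM + 1) per cell for Aplnr was 4.14 ± 2.77 (SD over 85 cells) in the KO and 5.65 ± 2.54 (SD over 83 cells) in WT. For Apln it was 5.98 ± 2.68 in the KO and 3.48 ± 3.003 in WT. Both differences were smaller than the SD over cells of either group.

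The lower receptor level in the KO was found in cells with Y-linked reads, while the sums over cells without them were nearly equal. Y-linked reads, here a sum of Eif2s3y, Uty and Kdm5d above 3 CPM, mark cells of male embryos. Among cells with such reads Aplnr was 19.9 CPM (18.9 to 20.97) in 49 KO cells and 117.7 CPM (114.9 to 120.4) in 53 WT cells, a log2 ratio of -2.50. Among cells without them it was 87.3 CPM (84.4 to 90.3) in 36 KO cells and 87.1 CPM (83.9 to 90.3) in 30 WT cells, a log2 ratio of 0.0042. The medians of these cells were 72.6 CPM in the KO and 102.6 CPM in WT. Apelin was higher in the KO in both, by log2 ratios of 1.06 with Y-linked reads and 0.80 without. As embryos are not named, the number of KO embryos behind the cells with Y-linked reads is not known, and sex and embryo cannot be told apart.

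Epithelial marker genes moved with the same comparison. All 11 epiblast markers were higher in the KO, 4 of them 2-fold or more, with a median log2 ratio of 0.91. All 10 nascent mesoderm markers were lower, 8 of them 2-fold or more, with a median of -2.16. That list includes Mesp1, the gene of the reporter, whose log2 ratio of -5.60 was the lowest of all genes compared. Cdh1, the adherens junction protein E-cadherin, stood at 10 CPM or more in 42.4% of KO cells (31.7% to 53.6%) and in 25.3% of WT set 1 cells (16.4% to 36.04%). The cells were therefore also compared on either side of that level, a split chosen after the data were seen.

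Among cells with Cdh1 of at least 10 CPM, apelin differed little between genotypes: 170.2 CPM (166.9 to 173.5) in 36 KO cells and 171.7 CPM (166.9 to 176.5) in 21 WT cells, a log2 ratio of -0.013. Among cells with Cdh1 below 10 CPM it was 142.7 CPM (139.5 to 145.9) in 49 KO cells and 39.04 CPM (37.6 to 40.6) in 62 WT cells, a log2 ratio of 1.84. The higher apelin of the KO was thus seen in Cdh1-low cells, where the median was 81.4 CPM against 2.81 CPM. The receptor showed the other pattern, with a log2 ratio of -0.70 among Cdh1-low cells (63.7 CPM in KO, 104.1 CPM in WT) and -2.13 among Cdh1-high cells (25.1 and 113.01 CPM). Apela changed sign between them, with log2 ratios of 1.42 and -1.01. The part of epithelial cells in these results was not tested.

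Crossing both splits left small numbers of cells. Within Cdh1-low cells, Aplnr was 24.3 CPM in 22 KO cells with Y-linked reads and 106.9 CPM in 27 KO cells without, against 121.5 and 81.6 CPM in the 37 and 25 WT cells. Apln in the same cells was 204.98 and 74.5 CPM in the KO and 53.4 and 20.5 CPM in WT. Among Cdh1-low KO cells, those with Y-linked reads thus had the lower summed receptor and the higher summed apelin. Cell by cell the KO showed no such order. In 4 bins of all KO cells from the lowest to the highest Aplnr, summed Apln was 155.1, 157.1, 189.6 and 132.2 CPM. Within Cdh1-high cells Aplnr was 17.3 CPM in 27 KO cells with Y-linked reads and 51.4 CPM in 9 without, against 111.7 and 119.5 CPM in 16 and 5 WT cells. Among cells without Y-linked reads the summed receptor level was therefore lower in the KO where Cdh1 was high and higher where it was low. By median the receptor was lower in the KO in both. The medians were 79.2 against 100.5 CPM in these Cdh1-low cells and 25.7 against 114.9 CPM in the Cdh1-high cells. Summed Apln in the Cdh1-high cells was 148.5 and 243.004 CPM in the KO and 123.55 and 408.3 CPM in WT, again with opposite directions, the last value from 5 cells. Both directions were the other way round by median, at 101.1 and 240.3 CPM in the KO and 150.1 and 29.2 CPM in WT.

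The stage comparison, made in WT cells within each set, uses the same E6.75 set 1 cells as the knockout comparison, so these comparisons are not independent. Aplnr was 440.1 CPM (437 to 443) at E7.25 and 106.8 CPM at E6.75 in set 1, a log2 ratio of 2.03. In set 2 it was 588 CPM (585 to 590.2) at E7.25 and 171.9 CPM (169.9 to 173.97) at E6.75, a log2 ratio of 1.77. Only 1.13% of genes in set 1 and 1.28% in set 2 had a higher ratio. The differences of the means per cell, 2.45 and 2.20 on the log2 scale, exceeded the SD over cells at E7.25 (1.66 and 1.36). In set 1 the difference was below the SD at E6.75 (2.54), and in set 2 it was 2.20 against 2.20.

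Apln was lower at E7.25 in both sets. It was 21.6 CPM (20.98 to 22.3) against 79.2 CPM in set 1, a log2 ratio of -1.83, and 50.2 CPM (49.5 to 50.9) against 101.8 CPM (100.2 to 103.3) in set 2, a log2 ratio of -1.01. Apela differed between sets: 5.24 CPM (4.92 to 5.58) against 4.58 CPM in set 1, a log2 ratio of 0.16, and 2.59 CPM (2.42 to 2.76) against 7.46 CPM (7.04 to 7.89) in set 2, a log2 ratio of -1.24. In set 1, 1 member was 2-fold higher and 1 lower, where 7.84% of 14127 genes were higher, 4.73% lower and 12.6% either. In set 2, 1 member was 2-fold higher and 2 were lower. With 10 CPM added neither was 2-fold lower (-0.89 for Apln and -0.47 for Apela), nor was Apela with equal weight for every cell (-0.96). In this set 6.12% of 14260 genes were higher, 2.6% lower and 8.72% either. The median log2 ratio of all genes was 0.02 in set 1 and 0.04 in set 2.

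The receptor was higher at E7.25 on both sides of the Cdh1 split, by log2 ratios of 2.13 and 1.66 in set 1 and 1.38 and 2.46 in set 2, for Cdh1 below and of at least 10 CPM. Within set 1 it was also higher at E7.25 whether cells had Y-linked reads (2.12) or had none (1.98). Apelin was lower in Cdh1-low cells of both sets (-1.75 and -1.83). In Cdh1-high cells it was lower in set 1, at 70.97 CPM against 171.7 CPM, a log2 ratio of -1.26, and differed by a log2 ratio of 0.0098 in set 2, at 164.6 CPM in 42 cells against 163.5 CPM in 43 cells. Cdh1 stood at 10 CPM or more in 48.3% of set 2 cells at E6.75 (37.6% to 59.2%) and 25% at E7.25 (18.7% to 32.3%). In set 1 the shares were 25.3% and 17.9% (12.5% to 24.5%).

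**Figure D2:**
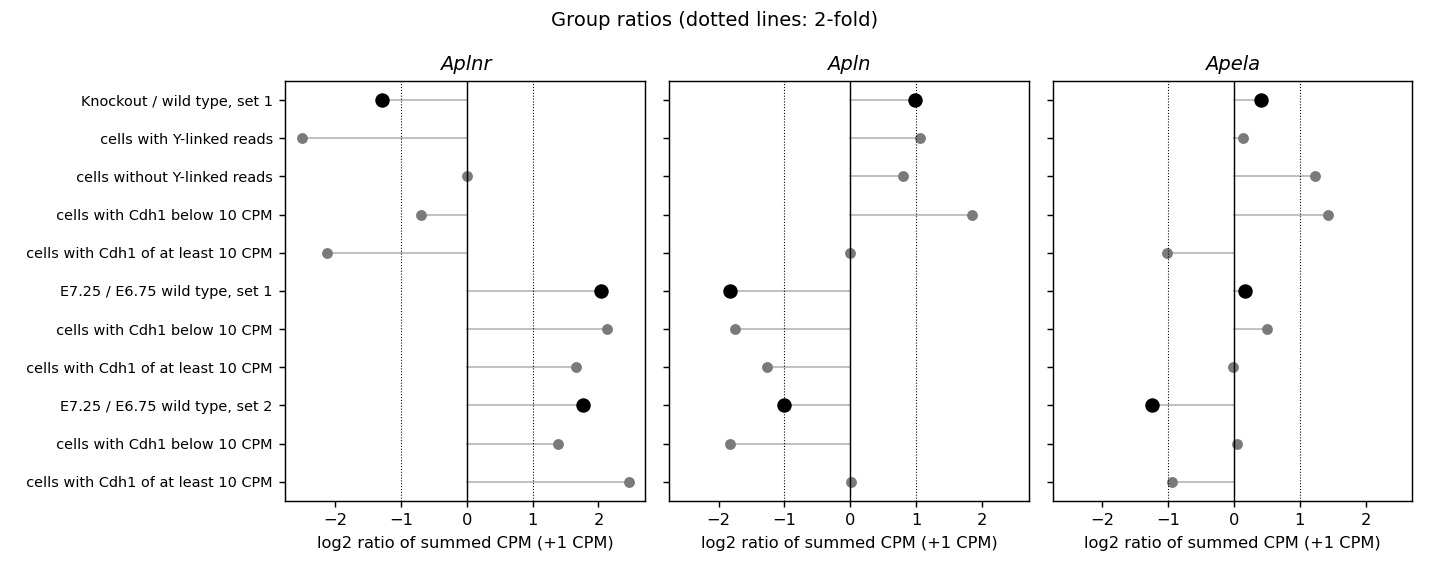
Log2 ratios of summed CPM, with 1 CPM added, for each gene. Black points are the comparisons of all cells of a set and grey points the same comparison among cells with or without Y-linked reads or on either side of 10 CPM of Cdh1. The Aplnr ratio in the knockout lies at -2.50 with Y-linked reads and at 0.0042 without, and the Apln ratio at 1.84 in Cdh1-low and at -0.013 in Cdh1-high cells.

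To ask which cells hold receptor and ligand together, every cell was thinned at random to 100000 reads and a gene counted as read with at least 1 read. At E6.75 most WT cells with apelin also had the receptor, which was read in most WT cells in any case. Of the WT cells, 97 had both Aplnr and Apln (56.4%, 48.6% to 63.9%), 53 had Aplnr without Apln, 10 had Apln without Aplnr and 12 had neither. Of the WT cells with Apln, 90.7% also had Aplnr (83.5% to 95.4%), an interval that holds the 87.2% of all WT cells at E6.75 with Aplnr. Apln was read in 64.7% of cells with Aplnr (56.5% to 72.3%) and in 45.5% of the 22 cells without it (24.4% to 67.8%), intervals that overlap. Within set 2 those shares were 71.95% (60.9% to 81.3%) and 71.4%, the latter being 5 of 7 cells (29.04% to 96.3%). In set 1 they were 55.9% (43.3% to 67.9%) and 33.3% of 15 cells (11.8% to 61.6%).

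The KO held the largest share of cells with apelin and no receptor read. There 26 of 85 cells had Apln without Aplnr (30.6%, 21.05% to 41.5%), against 5 of the 83 WT set 1 cells (6.02%, 1.98% to 13.5%). This contrast depends on thinning. No Aplnr read was left after thinning in 30 KO and 15 WT set 1 cells, against 12 and 6 at full depth. Most of these 26 KO cells therefore had some Aplnr reads before thinning, at a low level. Of the 26 KO cells 19 had Y-linked reads: the share was 38.8% of the 49 KO cells with such reads (25.2% to 53.8%) and 19.4% of the 36 without (8.19% to 36.02%), against 7.55% of 53 and 3.33% of 30 WT set 1 cells. The intervals cover counting over cells, not the spread between embryos. Cells with both numbered 45 (52.9%, 41.8% to 63.9%) in the KO and 38 (45.8%, 34.8% to 57.1%) in WT set 1. Cells with Aplnr alone of this pair numbered 10 (11.8%, 5.79% to 20.6%) in the KO and 30 (36.1%, 25.9% to 47.4%) in WT set 1. Apln was read in 81.8% of KO cells with Aplnr and in 86.7% of those without, shares of 55 and 30 cells. Of the KO cells with Apln, 63.4% also had Aplnr (51.1% to 74.5%), an interval that holds the 64.7% of all KO cells with Aplnr.

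At E7.25 apelin was read only in cells that also had the receptor. Every cell with Apln, 30.5% of the group (25.7% to 35.7%), had Aplnr, which was read in 98.5% of all cells at this stage. A further 68.04% (62.8% to 72.96%) had Aplnr without Apln. No cell had Apln without Aplnr, a share with a Clopper-Pearson upper bound of 1.08% and a limit of 0.880% if taken as 3 cells of the total. After thinning only 5 cells had no Aplnr read, too few to show whether apelin is read less often without the receptor. The upper bound of the share with Apln among them was 52.2%.

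Apela was read in 33 WT cells at E6.75, 14 KO cells and 33 cells at E7.25. Aplnr was read in 26, 8 and 32 of them, or 78.8% (61.1% to 91.02%), 57.1% (28.9% to 82.3%) and 96.97% (84.2% to 99.9%). The shares of all cells of those groups with Aplnr were 87.2%, 64.7% and 98.5%, inside these intervals each time. Apln was read in 24 of the 33 (54.5% to 86.7%), 13 of the 14 (66.1% to 99.8%) and 18 of the 33 (36.4% to 71.9%) cells with Apela. The shares of all cells of those groups with Apln were 62.2%, 83.5% and 30.5%. They lay inside the interval in both E6.75 groups and below it at E7.25. At E7.25 Apela was read in 17.3% of cells with Apln (10.6% to 25.97%) and in 6.33% of cells without (3.59% to 10.2%). At E6.75 the same shares were 22.4% and 13.8% in WT and 18.3% and 7.14% in the KO, with intervals that overlapped. Most cells with Apela thus also had Apln, whereas most cells with Apln had no Apela read: Apela was read in 22.4%, 18.3% and 17.3% of them.

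Put together, the receptor was read with at least 1 ligand in 60.5% of WT cells at E6.75 (52.7% to 67.8%), 52.9% of KO cells (41.8% to 63.9%) and 34.6% of cells at E7.25 (29.6% to 39.9%). The receptor alone was read in 26.7%, 11.8% and 63.9% of them (58.6% to 69.03% at E7.25). A ligand without the receptor was read in 12 WT cells at E6.75 (6.98%, 3.66% to 11.9%), 27 KO cells (31.8%, 22.1% to 42.8%) and 1 cell at E7.25 (0.293%, 0.00742% to 1.62%). All 3 genes were read together in 19, 8 and 18 cells. The 2 sets differed in the share with receptor and ligand, 48.2% and 71.9% in WT at E6.75 and 27.2% and 42.3% at E7.25, for set 1 and set 2. Within set 1, which holds all KO cells, the WT share at E6.75 (37.1% to 59.4%) was thus below the KO share of 52.9%, with overlapping intervals. In those WT set 1 cells the receptor alone was read in 33.7% and a ligand without the receptor in 8.43%.

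**Figure D3:**
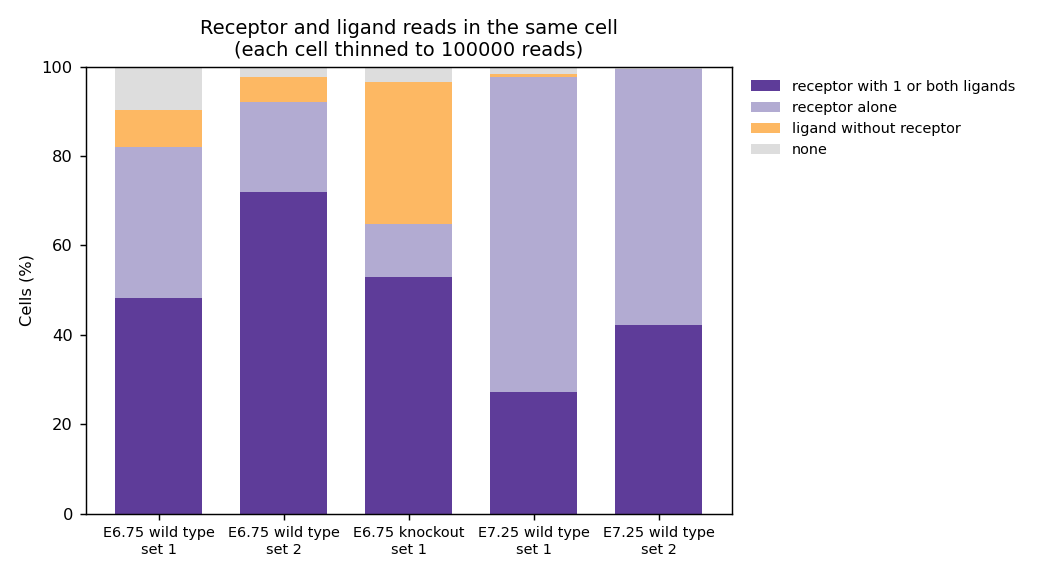
Share of cells, in percent, with reads of the receptor and at least 1 ligand, the receptor alone, a ligand without the receptor, or none, by group and library set, with every cell thinned to 100000 reads. A ligand without the receptor is most frequent in the knockout (31.8%), where 22 of the 30 cells with no receptor read had Y-linked reads, and the receptor alone is most frequent at E7.25 (70.5% in set 1 and 57.1% in set 2). Without thinning, 12 knockout cells had no receptor read.

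Without a threshold, the correlation of receptor and apelin across cells was largest in E7.25 set 2. Pearson correlations of log2(CPM + 1) over cells, which share libraries' depth and unnamed embryos, were -0.01 and 0.06 in WT set 1 and set 2 at E6.75, 0.11 and 0.30 at E7.25 and -0.13 in the KO. Aplnr and Apela had correlations of -0.10, -0.31, -0.11 and 0.02 in the same 4 WT combinations and -0.10 in the KO. The 2 ligands went together in each: 0.30, 0.36, 0.28 and 0.25, and 0.28 in the KO, over 83 and 89 WT cells and 85 KO cells at E6.75 and all cells of each set at E7.25. Averaged over the 4 WT combinations, 25 of 8440 genes had a higher correlation with Apln than Apela had (0.30), and 1 of 8597 had a higher one with Apela than Apln had.

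The E7.25 set 2 value can be seen along the receptor's range. In 4 bins of 42 cells from the lowest to the highest Aplnr, summed Apln was 9.81, 6.37, 76.2 and 102.3 CPM, and Apln was read in 23.8%, 21.4%, 35.7% and 69.05% of thinned cells. Cells above 730.0 CPM of Aplnr thus held most of the apelin as well. In set 1 at E7.25 the same bins, of 43 or 44 cells, gave 5.60, 30.8, 32.2 and 13.6 CPM of Apln, with no such order. Apela in E6.75 set 2 went the other way, with 22.7, 3.74, 2.55 and 1.68 CPM from the lowest to the highest Aplnr bin and thinned reads in 43.5%, 27.3%, 9.09% and 9.09% of cells. In set 1 at that stage the Apela bins were 5.12, 3.94, 3.38 and 6.89 CPM.

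**Figure D4:**
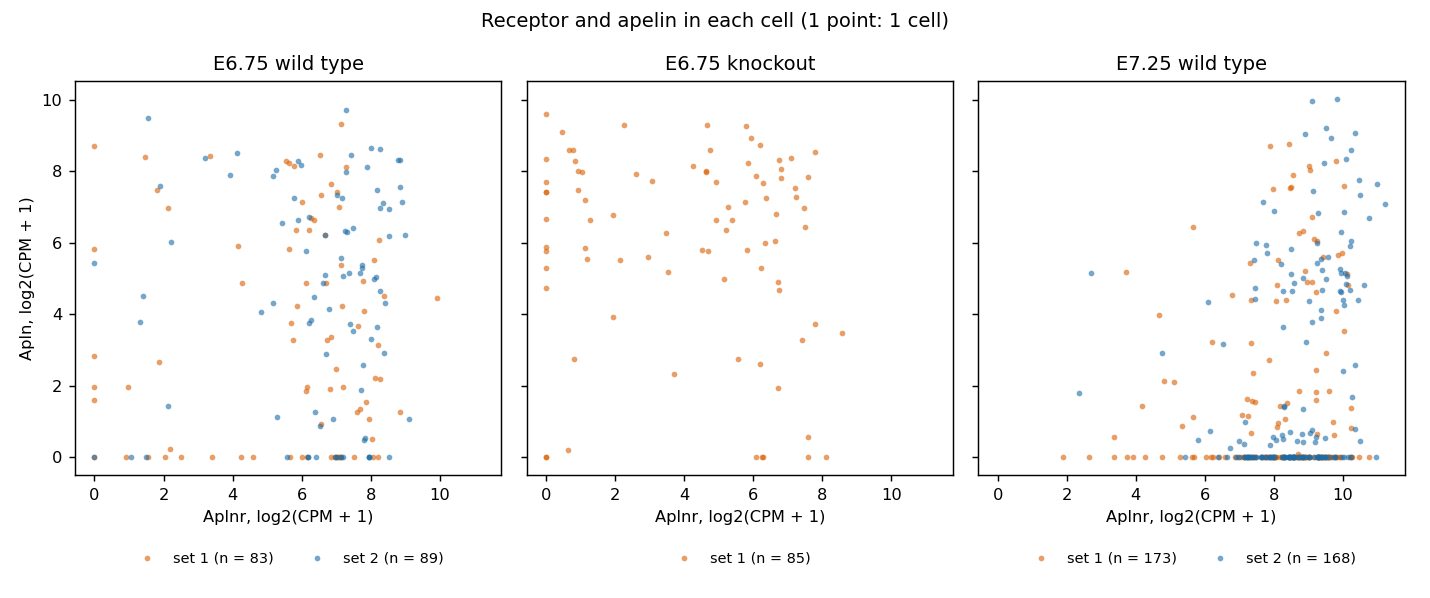
Aplnr against Apln in every cell, as log2(CPM + 1), for the 3 groups, with library sets in colour. Knockout cells spread to low Aplnr while keeping Apln. Cells at E7.25 gather at high Aplnr, with Apln at 0 in many cells and spread from low to high values in the others.

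Cells were grouped within each group by genes other than the members, and a cluster was named only where at least 5 markers of 1 list were 2-fold higher in it and no other list had as many among its 10 leading genes. At E7.25, 4 of 10 clusters could be named. The paraxial and presomitic mesoderm-like cluster (42 cells, 36 of them in set 2), led by genes such as Wnt3a and Msgn1, had the highest levels of both receptor and apelin. Aplnr there ran from 5.21 to 2393 CPM with a median of 941 and a summed level of 1048 CPM (1041 to 1055), 1.95 times that of all cells at E7.25. Apln ran from 0 to 1039 CPM with a median of 30.5 and a summed level of 174.03 CPM (171.2 to 176.9), 4.28 times that of all cells. This cluster held 64.8% of all Apln reads at E7.25 and 29.5% of all Aplnr reads, in 12.3% of the cells. Shares of reads also rise with depth, and its cells had a median of 1918470 reads against 1377890 over all cells at E7.25.

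The cranial and pharyngeal mesoderm-like cluster (30 cells) had the receptor with little ligand. Its Aplnr was 609 CPM (603 to 615), its Apln 7.31 CPM (6.65 to 8.01) and its Apela 0.628 CPM (0.446 to 0.858). Apln was read in 26.7% of its thinned cells, against 66.7% of the paraxial-like cells. An unnamed cluster of 63 cells led by Tenm2, Eif2s3y and Lefty1, with 55 cells in set 1 and 51 with Y-linked reads, had 717 CPM of Aplnr and 35.9 CPM of Apln.

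The extraembryonic mesoderm-like cluster (39 cells) had the lowest summed receptor level, at 221.5 CPM (217.8 to 225.3), with an unnamed cluster of 36 cells close to it at 225.3 CPM (220.4 to 230.3). By cell, the median was lower in an unnamed cluster of 22 cells, 140.2 CPM against 212.5 in the extraembryonic-like cluster. Apln in the extraembryonic-like cluster was 2.74 CPM (2.34 to 3.19) with reads in 2 of 39 thinned cells. Apela was highest there, at 11.4 CPM (10.6 to 12.3), but from few cells: the median was 0, reads were found in 5 of 39 thinned cells, and the highest cell had 227.8 CPM. The definitive endoderm and axial mesoderm-like cluster (21 cells) had all 3 genes, with 391 CPM of Aplnr (384 to 398), 48.02 CPM of Apln (45.7 to 50.4) and 8.60 CPM of Apela (7.64 to 9.64). Apela was read in 33.3% of its thinned cells (14.6% to 56.97%), and in 23.8% of the paraxial-like cells (12.1% to 39.5%). Of all Apela reads at E7.25 the extraembryonic-like cluster held 36%, the paraxial-like cluster 34.4% and the endoderm-like cluster 15.2%. The endoderm-like cluster held 7.27% of the Apln reads, and the unnamed cluster led by Tenm2 held 14.4%.

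At E6.75 none of the 7 WT and 3 KO clusters could be named, so they are given by their leading genes. WT cluster 1 (36 cells, led by Igf2, Bmp4 and Etv2) had the highest summed Aplnr, 188.7 CPM (185.3 to 192.2) with a median of 132.3, and low Apln, 36.8 CPM (35.3 to 38.4). WT cluster 2 (30 cells, led by Sfrp1, Pkdcc and Ror1, with Cdh1 and Fgf5 2-fold higher) had 167.002 CPM of Aplnr (163.5 to 170.5), with the highest median (156.01), and the highest summed Apln, 192.1 CPM (188.3 to 195.9), with a median of 134.001. WT cluster 5 (22 cells, led by Irgm1, Psmb8 and Igfbp3) had the lowest Aplnr, 82.9 CPM (80.2 to 85.8), with 173.996 CPM of Apln (169.99 to 178.1), the highest median of Apln (195.1), and the highest summed Apela, 19.2 CPM (17.9 to 20.6). It held 48.2% of Apela reads of WT cells at E6.75 in 12.8% of those cells. Scaled for depth, its summed Apela was 3.01 times that of all WT cells at E6.75. Apelin was read in 95.5% and 90% of the thinned cells of clusters 5 and 2 and in 44.4% of cluster 1. Across the 7 WT clusters Aplnr varied 82.9 to 188.7 CPM and Apln 22.3 to 192.1 CPM.

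In the KO, cluster 2 (28 cells, 25 with Y-linked reads, with Pla2g7 and Wnt8a among its leading genes) had the lowest receptor and the highest apelin. Its Aplnr was 17.5 CPM (16.3 to 18.8) with a median of 3.28, and its Apln 244.9 CPM (240.4 to 249.5), read in all 28 thinned cells. Cluster 3 (23 cells, 9 with Y-linked reads) had 76.9 CPM of Aplnr (74.1 to 79.8) and 131.4 CPM of Apln (127.8 to 135.2). Cluster 1 (34 cells, 15 with Y-linked reads) had 40.6 CPM of Aplnr (38.4 to 42.8) and the lowest Apln, 62.6 CPM (59.9 to 65.4).

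**Figure D5:**
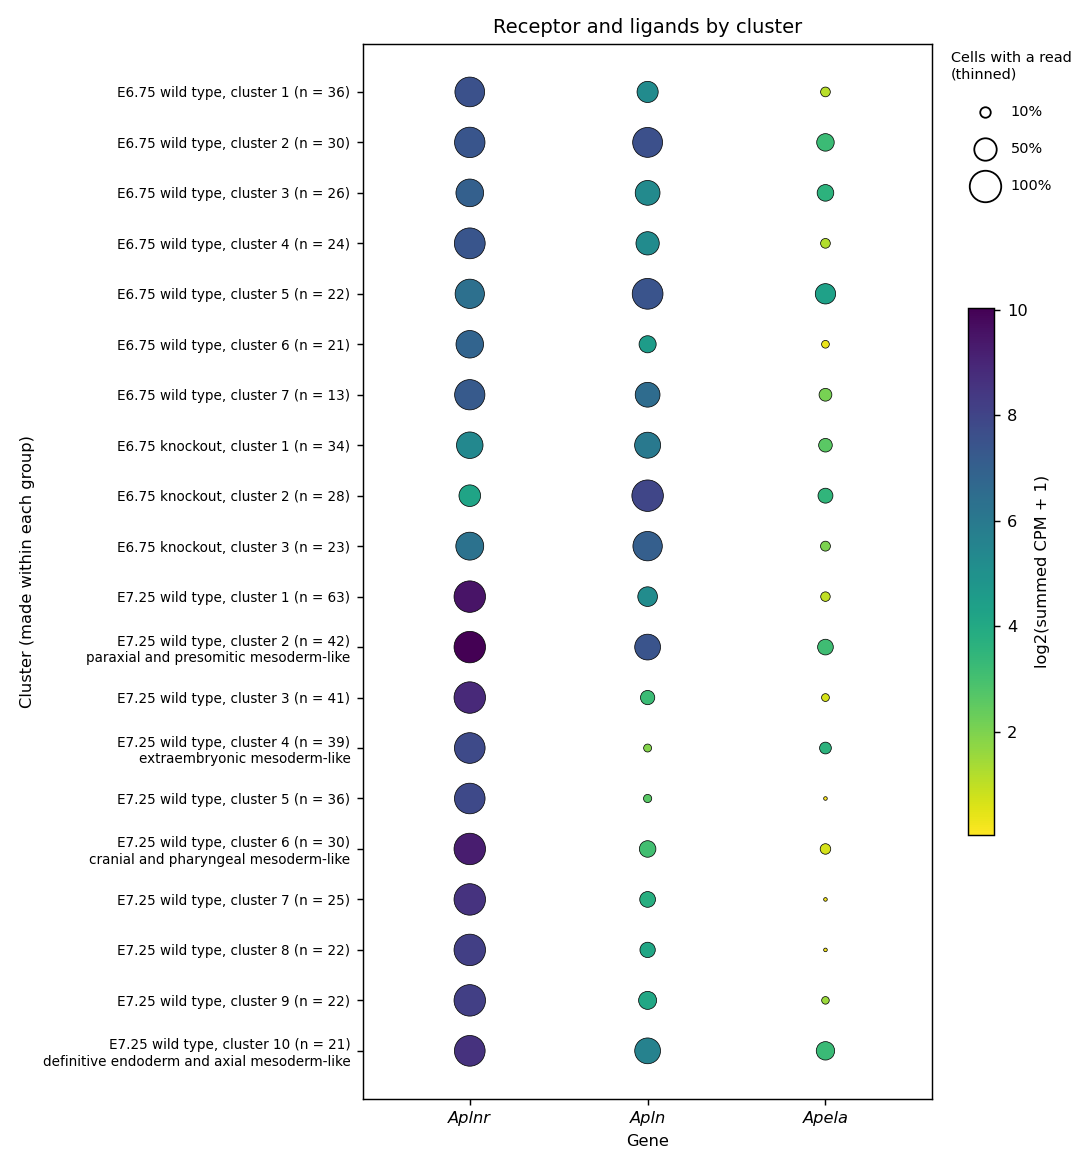
Summed level of each gene, as log2(CPM + 1) in colour, and share of thinned cells with a read, as point size, in the clusters of each group. Aplnr is read in most cells of every E7.25 cluster, while the highest summed Apln of each group is in wild type cluster 2 at E6.75 (192.1 CPM), in knockout cluster 2 (244.9 CPM) and in the paraxial and presomitic mesoderm-like cluster at E7.25 (174.03 CPM).

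The genes most like each member across cells were found from the mean correlation over the 4 WT combinations, among genes of at least 5 CPM with a read in 25% of cells (10% for Apela) in each. Aplnr was most like the Nodal inhibitors Lefty1 (0.38) and Lefty2 (0.38), the secreted WNT antagonist Frzb (0.37) and the Notch ligands Dll3 (0.37) and Dll1 (0.36). The lowest were Id1, a target of BMP signalling (-0.33), Scn4b, Psme2b, Msx2 and Hand1 (-0.25). Single values varied between combinations: Dll1 had 0.16 and 0.19 at E6.75 and 0.51 and 0.59 at E7.25, whereas Psme2b had -0.42 in both sets at E6.75 and -0.18 and -0.14 at E7.25.

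Apln was most like Cdh1 (0.51, and 0.45 to 0.54 in each WT combination), followed by the planar polarity gene Prickle1 (0.49), the activin-binding follistatin Fst (0.43), the streak transcription factor T (0.42) and the DNA methyltransferase Dnmt3b (0.42). The correlation with Cdh1 was 0.22 in the KO, where that with Dnmt3b was 0.51. The lowest were Ppic (-0.41), the VEGF receptor Kdr (-0.38, also -0.38 in the KO) and Prdm6 (-0.34). Apela was most like Spint1 (0.30), Apln itself (0.30), the tight junction gene Cldn7 (0.28), Nanog (0.27) and Spint2 (0.26), with Spint1 and Spint2 encoding protease inhibitors of epithelial cells. Among its 5 lowest were Kdr (-0.27), Dll3 (-0.27), Crabp1 (-0.26) and Ppic (-0.26). Kdr and Ppic were thus among the 5 lowest for both ligands, and Dll3 was among the 5 highest for the receptor and the 5 lowest for Apela.

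Of the 8 G protein, arrestin and receptor kinase genes through which the receptor signals, all were above 1 CPM. In the KO 1 was 2-fold lower and none higher, with a median log2 ratio of -0.21. At E7.25, 3 were 2-fold higher in set 1 (median 0.17) and 1 in set 2 (median 0.20). The one that was 2-fold apart in all 3 comparisons was Arrb1, encoding an arrestin that binds activated receptors. It was 13.8 CPM in the KO and 37.7 CPM in WT set 1 (log2 ratio -1.39), and at E7.25 94.1 CPM in set 1 (1.30) and 132.8 CPM in set 2 against 24.4 CPM (2.40). Its directions were those of Aplnr. Gnai1 and Gnaq were higher at E7.25 in set 1 (1.31 and 1.25) and had log2 ratios of -0.20 and 0.25 in set 2. For this and the following lists, the shares of all genes 2-fold higher and lower were 4.8% and 7.64% in the knockout comparison. At E7.25 those shares were 7.84% and 4.73% in set 1 and 6.12% and 2.6% in set 2.

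Among 5 peptide processing and breakdown enzymes, 4 were above 1 CPM, of which 2 were 2-fold lower in the KO and 1 was 2-fold higher at E7.25 in either set. Pcsk5, a proprotein convertase, was 0.357 CPM in the KO and 8.85 CPM in WT set 1 (log2 ratio -2.86), and 43.8 and 48.3 CPM at E7.25 (2.19 and 2.45). Mme, encoding neprilysin, was the other gene lower in the KO, at 0.826 against 2.66 CPM (-1.004), and is named after its values were seen. Furin stood at 2.20 CPM in the KO and 3.19 CPM in WT set 1.

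Another 13 guidance and vascular receptor and ligand genes were followed, of which 8 were above 1 CPM in the knockout comparison, with 1 higher and 2 lower by 2-fold and a median of -0.83. Cxcl12, the ligand of Cxcr4 and Ackr3, was higher in the KO, at 19.3 against 8.53 CPM (log2 ratio 1.09), and lower at E7.25 in both sets (-1.91 and -2.29), the same directions as Apln. Its correlation with Apln was 0.52 and 0.46 at E6.75, 0.16 and 0.12 at E7.25, and 0.35 in the KO. Cxcr4 was lower in the KO, at 1.12 against 5.96 CPM (-1.71). At E7.25 its log2 ratios were 0.77 and 0.85, and those of Ackr3 were 1.10 and 1.56. S1pr2, a sphingosine phosphate receptor, was lower in the KO (-1.08) and higher at E7.25 (1.35 and 1.11). For Cxcl12 and Cxcr4, as for Apln and Aplnr, the ligand was higher and the receptor lower in the KO. A lower level was common in this list, with 7 of the 8 genes above 1 CPM lower in the KO. For Aplnr the sums were nearly equal among cells without Y-linked reads (log2 ratio 0.0042).

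Apelin is known to be induced by low oxygen, so 10 genes induced by hypoxia were read beside it. Of the 8 above 1 CPM in the knockout comparison none was 2-fold apart, and the median was -0.04, near that of all genes. At E7.25 none of 9 was 2-fold apart in set 1 (median -0.23), and in set 2 Bnip3 alone was 2-fold higher (1.15), with a median of 0.30.

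All 12 genes of the Nodal pathway, which patterns the streak and includes the 2 genes most like Aplnr, were above 1 CPM. In the KO 2 were 2-fold higher and 1 lower, beside 4.8% and 7.64% of all genes, with a median of -0.08. At E7.25, 4 were higher and 3 lower in set 1, and 3 higher and 2 lower in set 2. The ligand Nodal was 89.4 CPM in the KO and 35.6 CPM in WT set 1 (log2 ratio 1.30), and was lower at E7.25 (-4.34 and -3.06). Lefty2 was 24.1 CPM in the KO and 279.03 CPM in WT set 1 (-3.48), and higher at E7.25 (1.76 and 1.07). Cer1, another secreted inhibitor, was higher at E7.25 (2.97 and 3.38). Nodal had the directions of Apln, and Lefty2 those of Aplnr, in all 3 comparisons.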

How the data were processed

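Full-length complementary DNA of single sorted cells was sequenced by a plate-based method with Nextera XT libraries on an Illumina HiSeq, per the labels' protocols. The authors deposited 1 table of unnormalized counts, with genes as rows and cells as columns. Reads were aligned to mm10 with GSNAP and counted with HTSeq 0.5.3p3, per the submitters' processing notes; strand setting, annotation release and parameters were not given in the sources used here. Genes were named from GENCODE M21 (40254 of 40912 identifiers matched).

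The labels gave 172 WT and 85 KO cells at E6.75 and 341 WT cells at E7.25, of which 83, 85 and 173 fell in library set 1. A minimum of 100000 reads and 2000 genes per cell removed 0 cells, and 0 pairs of columns were identical. A cell was placed in set 1 where 5 or more of Foxe1, Dusp15, Kcnk12, Pou3f3, Six3, Vax1, Sox3 and Hoxd13 had reads. Clusters came from 2000 variable genes without the members and the 95 set-separating genes, centred within sets, 20 principal components, 15 neighbours and Leiden resolution 1. Doublets were not called. That a name needs 5 markers was decided after the clusters were seen. For likeness, predicted genes, pseudogenes, mitochondrial genes, Y-linked genes and Xist were left out. The text names the 3 members, for each the 5 genes at either end of that ranking, and, of each pathway list, up to 4 genes of at least 5 CPM with a 2-fold ratio in any comparison, by size. Members and lists were chosen with earlier results of these data known. edgeR 4.0.16 gave TMM factors for an alternative scaling only. Analyses used Python 3.11.15, numpy 2.4.6, scikit-learn 1.9.0 and leidenalg 0.10.2. The ratio, thinning and clustering steps were tested on simulated counts. A few genes that these rules name are not reported here.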

Additional observations from a re-analysis of the deposited data

How the results depend on the processing

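Each of 27 results was recomputed under alternatives: 99 values stayed within a margin and 95 moved further. The margin was counting error, but 1.5 times for counts of genes and the SD over the 4 WT combinations for mean correlations. Of the log2 ratios 9 had the opposite sign under an alternative, and each is marked with its value. No paired analysis was possible because each group is 1 sample and the cell numbers in the labels pair nothing. Leaving out cell filters changed nothing, as no cell failed them. Except where a reason is given, the cause was not tested.

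Log2 ratios follow in the order knockout set 1, stage set 1, stage set 2. With every cell weighted equally, Aplnr was -1.01 and 1.82, Apln 1.30 and -1.51, and Apela -0.28 (the opposite sign) and -0.96 at the 2 stage comparisons. With 10 CPM added, which shrinks ratios of low genes, Aplnr was -1.13, 1.95 and 1.72, Apln 0.91, -1.50 and -0.89, and Apela 0.17 and, in stage set 2, -0.47, while 1.08%, 1.73% and 1.73% of genes were 2-fold apart. With both library sets together, Aplnr was -1.75 and 1.86, Apln 0.75 and -1.18, and Apela 0.010 and -0.72 (the opposite sign of set 1), for knockout and stage, with 7.02% of genes apart by stage and a median knockout ratio over all genes of -0.11. Among cells with Y-linked reads, Aplnr was -2.50 and 2.12, Apln 1.06 and -1.46, and Apela 0.14 and 0.46. Among those without, Aplnr was 0.0042 (the opposite sign) and 1.98, Apln 0.80 and -2.49, Apela 1.23 and -0.52 (the opposite sign), with 23.2% and 21.98% of genes apart. The Cdh1 splits were chosen after seeing the data. Below 10 CPM of Cdh1, Aplnr was -0.70, 2.13 and 1.38, Apln 1.84, -1.75 and -1.83, and Apela 1.42, 0.49 and 0.050 (the opposite sign). At 10 CPM or more, Aplnr was -2.13, 1.66 and 2.46, Apln -0.013, -1.26 and 0.0098 (the opposite sign in the knockout and in stage set 2), and Apela -1.01, -0.018 and -0.94 (the opposite sign in the knockout and in stage set 1), with 21.4%, 25.97% and 15.4% of genes apart. Median-of-ratios scaling gave Apln 1.03 in the knockout, and 1.74 for Aplnr and -1.04 for Apln in stage set 2. TMM scaling gave 1.014 for Apln in the knockout and 1.74 for Aplnr in stage set 2, and library sizes without mitochondrial genes gave 1.74 and -1.04 for Aplnr and Apln in stage set 2. A minimum of 10 CPM left 6.58%, 8.15% and 5.83% of genes apart, since fewer genes were counted.

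The share of Aplnr cells with Apln was, without thinning, 79.3% in wild type at E6.75, 93.2% in the knockout and 47.5% at E7.25, and with Apela 29.9%, 35.6% and 15.2%, since deeper cells show more reads. Thinned to 500000 reads (30, 24 and 46 cells left out), Apln was read in 77.04%, 95.7% and 38.98% and Apela in 28.1% and 30.4% at E6.75. Set 1 alone gave 55.9% and 24.3% for Apln in wild type, and set 2 alone 37.7% at E7.25. With 2 reads required, Apela at E6.75 was 7.86%. The ratio of the highest cluster to all cells at E6.75 was 1.25, 1.83 and 1.83 for Aplnr, Apln and Apela at resolution 0.6, and 1.44, 1.95 and 2.03 without centring, which at E7.25 gave 1.99 for Aplnr and 3.88 for Apln. The mean correlation of Apln with Apela was 0.25 in thinned cells. Depth limits Apela most: a cell with 100000 reads cannot show a level far below 10 CPM.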
